A study of Mus musculus with 11 samples.

Results

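The 4 genes of epithelial antimicrobial proteins were followed through ligature-induced periodontitis: the beta-defensins Defb3 and Defb14, the peptidoglycan recognition protein Pglyrp4 and the BPI fold protein Bpifa5. They were taken by gene name, and all 4 were among the 178 genes of the deposited table. RNA was sequenced from gingival epithelium of male B6 mice, lifted off the underlying tissue after Dispase digestion. Naive mice (n = 4 libraries) carried no thread, ligature mice (n = 3) had silk tied around both second maxillary molars, and removal mice (n = 4) had the same silk taken off on day 3. The day of tissue collection is not given in the labels, and neither is the age of the mice or whether each library came from a separate animal, so each p-value reflects only how these libraries vary, which may be technical.

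Antimicrobial peptides and proteins of stratified epithelium are secreted at the surface, where they hold down the bacteria that live on it. Beta-defensins are short cationic peptides, folded by cysteine bridges, that disrupt bacterial membranes, and some also attract immune cells. Pglyrp4 belongs to a family of secreted proteins that bind bacterial cell wall peptidoglycan, and Bpifa5 to the PLUNC proteins, related to the bactericidal/permeability-increasing protein and described in the surface epithelium of the tongue. Plaque that gathers on a ligature sets off inflammation of the gum and loss of the bone around the tooth.

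The coding sequences of the defensins are shown because these paralogs lie on the same chromosome, 8, and are both among the 4 genes described. The reading frames come from the GENCODE M21 transcripts (GRCm38), 5′ to 3′, with cysteine codons in capitals.
Defb3: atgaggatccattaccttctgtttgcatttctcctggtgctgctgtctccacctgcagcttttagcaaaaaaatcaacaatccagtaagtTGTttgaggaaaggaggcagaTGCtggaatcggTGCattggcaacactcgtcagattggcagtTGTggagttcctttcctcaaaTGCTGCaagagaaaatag
Defb14: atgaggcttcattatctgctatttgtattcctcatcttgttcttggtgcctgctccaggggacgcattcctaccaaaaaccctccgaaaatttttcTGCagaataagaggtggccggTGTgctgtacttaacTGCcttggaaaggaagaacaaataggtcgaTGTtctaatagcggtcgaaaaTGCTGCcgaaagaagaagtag
The frame of Defb3 spans 192 bases and that of Defb14 spans 204, each with 6 cysteine codons, at codons 31, 38, 42, 52, 59 and 60 in Defb3 and at codons 33, 40, 45, 55, 62 and 63 in Defb14. In a global alignment 121 of 189 aligned bases were identical (64.0%). No stretch of 50 bases from the annotated transcripts of the 4 genes was found in a transcript of any other gene on either strand, including the other defensin. Pglyrp4 lies on chromosome 3 and Bpifa5 on chromosome 2.

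Promoters of Defb3 and Bpifa5 were in the RefSeq promoter table (GRCm38.p6), and those of Defb14 and Pglyrp4 were not used here. The promoters of Defb3 and Bpifa5 are shown because they were available. These genes also had the widest differences between ligature and naive libraries of the 4. The stretches are the 250 bases before the annotated start, both on the plus strand, with matches to the searched motifs in capitals.
Defb3, chr8:19293111-19293360: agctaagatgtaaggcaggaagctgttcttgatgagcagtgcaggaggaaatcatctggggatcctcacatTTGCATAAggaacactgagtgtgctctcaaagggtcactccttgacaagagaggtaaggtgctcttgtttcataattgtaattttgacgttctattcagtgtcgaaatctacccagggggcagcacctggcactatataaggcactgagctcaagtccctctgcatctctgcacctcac
Bpifa5, chr2:154162357-154162606: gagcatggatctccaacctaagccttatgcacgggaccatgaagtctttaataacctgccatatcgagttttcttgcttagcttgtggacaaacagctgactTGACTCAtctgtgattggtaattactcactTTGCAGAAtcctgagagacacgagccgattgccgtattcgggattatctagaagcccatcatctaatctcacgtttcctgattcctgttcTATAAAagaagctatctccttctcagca
Searched on both strands were TATAAA (the TATA element), TGANTCA (AP-1), TGACGTCA (the cAMP response element), TTGCNNAA (C/EBP) and an NF-kappaB motif. The Bpifa5 promoter held TATAAA 28 to 23 bases before the start, TTGCAGAA 118 to 111 bases before it and TGACTCA 148 to 142 bases before it. The Defb3 promoter held TTGCATAA 179 to 172 bases before its start and no other searched motif. Only these exact letters were searched, so close variants, such as tatataag in the Defb3 stretch, were not counted. Among 32851 promoter windows of the same length, 12.4% held TATAAA, 6.75% the AP-1 letters, 9.56% the C/EBP letters, 1.55% the cAMP response element and 1.41% the NF-kappaB motif. A match describes letters only.

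With the ligature in place all 4 transcripts fell below their naive level. Values here are normalised read counts, which are raw counts divided by a size factor per library. The test was edgeR's quasi-likelihood test with Benjamini-Hochberg adjustment over the 176 genes tested, with a call at an adjusted p under 0.05. In the same comparison 56.8% of all tested genes were called lower, and the median log2 fold change was -1.32 over the 4 genes and -0.38 over all tested genes. The deposited table holds a selected set, in which every gene reached a p of 0.0103 or less against naive for ligature or removal (DESeq2 with a term for library set), so a call against naive was favoured for each of these genes. Of the 55 genes on 4 antimicrobial lists only these 4 were in the table, and the other 51 were not analysed here.

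**Figure D1:**
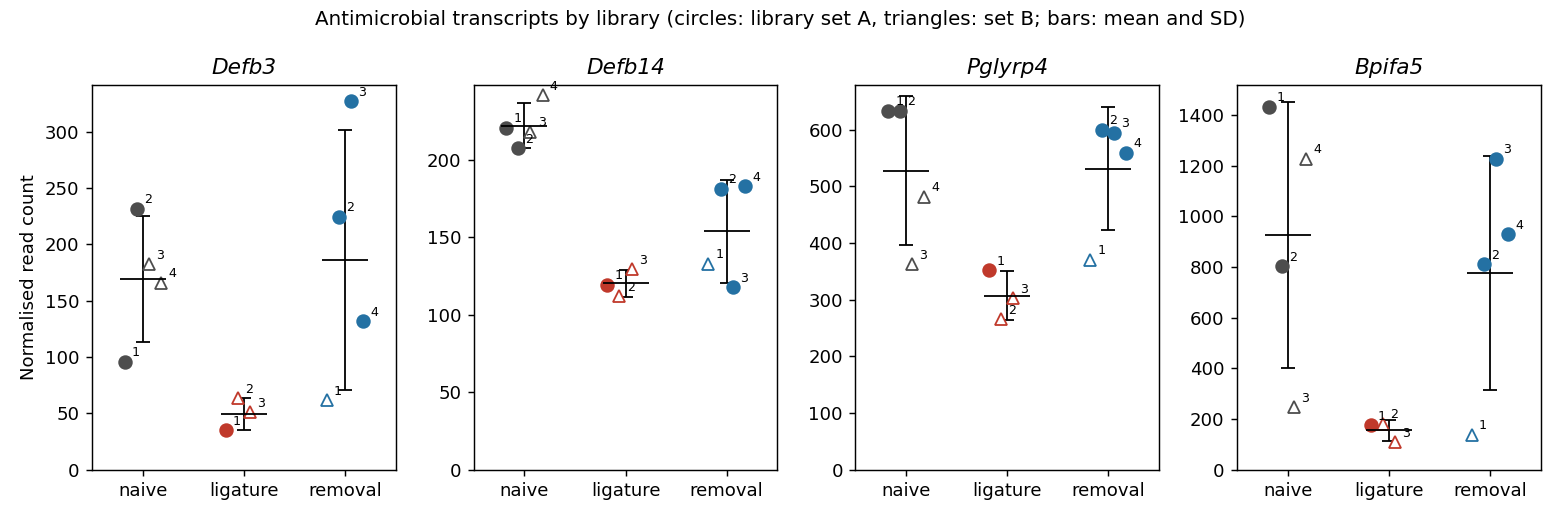
Normalised read count (vertical axis, linear, from 0) of each gene in each library, by group; numbers are the replicate numbers of the labels, and bars give the mean and SD. Every ligature library lies below every naive library in all 4 panels, and removal replicate 1 is the lowest removal library for Defb3, Pglyrp4 and Bpifa5.

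Bpifa5 differed most. Naive replicates 1 to 4 had normalised counts of 1432, 803, 246 and 1227, and ligature replicates 1 to 3 had 176, 182 and 109. The naive libraries were spread widely, with replicate 3 far below the others, and the ligature libraries lay together below all of them. The mean went from 927 ± 524 (SD, n = 4) to 155 ± 40.5 (n = 3), which is 16.8% of naive. Its log2 fold change was -2.58 ± 0.68 (SE), with a 95% interval of -4.06 to -1.09 (edgeR adjusted p = 0.006).

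Defb3, a beta-defensin known to be induced in mouse epithelia by infection, followed. Its naive counts were 96.0, 232, 182 and 166, and its ligature counts were 34.9, 63.2 and 51.1. No ligature library reached the lowest naive one, although naive replicate 1 stood well below the others. The mean went from 169 ± 56.0 (n = 4) to 49.8 ± 14.2 (n = 3), or 29.5% of naive. The log2 fold change was -1.76 ± 0.50, with a 95% interval of -2.85 to -0.68 (edgeR adjusted p = 0.0071). Ligature replicate 1 rested on 41 reads, for which the exact Poisson 95% interval is 25.1 to 47.4 normalised counts, covering counting error only.

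Defb14, the mouse counterpart of human DEFB103 and a ligand of the chemokine receptor CCR6, was the most evenly measured of the 4. Naive libraries had 220.5, 207, 218 and 242 normalised counts, and ligature libraries had 119, 112 and 129. Both groups were tight, with a coefficient of variation of 6.48% in naive and 7.25% in ligature libraries, where counting error alone would give 6.89% and 8.74%. The mean went from 222 ± 14.4 (n = 4) to 120.2 ± 8.71 (n = 3), 54.2% of naive. It fell by 0.88 ± 0.18 on the log2 scale and had the smallest edgeR adjusted p of the 4 (0.0023).

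Pglyrp4 had naive counts of 634, 634, 363 and 482 and ligature counts of 352, 266 and 303. The groups did not overlap, but the lowest naive library, replicate 3, was close to the highest ligature library, replicate 1. The mean went from 528 ± 131 (n = 4) to 307 ± 43.3 (n = 3), 58.1% of naive. On the log2 scale it fell by 0.78 ± 0.22 (edgeR adjusted p = 0.007). In all 4 genes the normalised counts of the ligature libraries lay below those of every naive library, as in 48.9% of tested genes. In the deposited batch-corrected values the groups overlapped for Defb3. There ligature replicates 2 and 3 (94.6 and 83.3) lay above naive replicate 1 (80.2). For Bpifa5 the corrected values of ligature replicates 1 to 3 were spread widely, at 3.21, 424 and 360, still below every naive library. Their mean was 262 ± 227 (n = 3), against 922 ± 431 in naive (n = 4).

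With TMM factors computed over the table the fall of Defb14 shrank to -0.52 on the log2 scale (-0.53 with median-of-ratios factors) and was still called (edgeR adjusted p = 0.0193), as were those of Defb3 (-1.39) and Bpifa5 (-2.19). That of Pglyrp4 was not called with TMM (-0.41, edgeR adjusted p = 0.0572). Under TMM the median over all genes was -0.02 in place of -0.38. Factors computed over the table take most of its genes as unchanged, and the table is a set selected for differences. Which scaling lies nearer the true levels was not tested. No call of the 4 genes in this comparison was lost when any single library was left out.

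**Figure D2:**
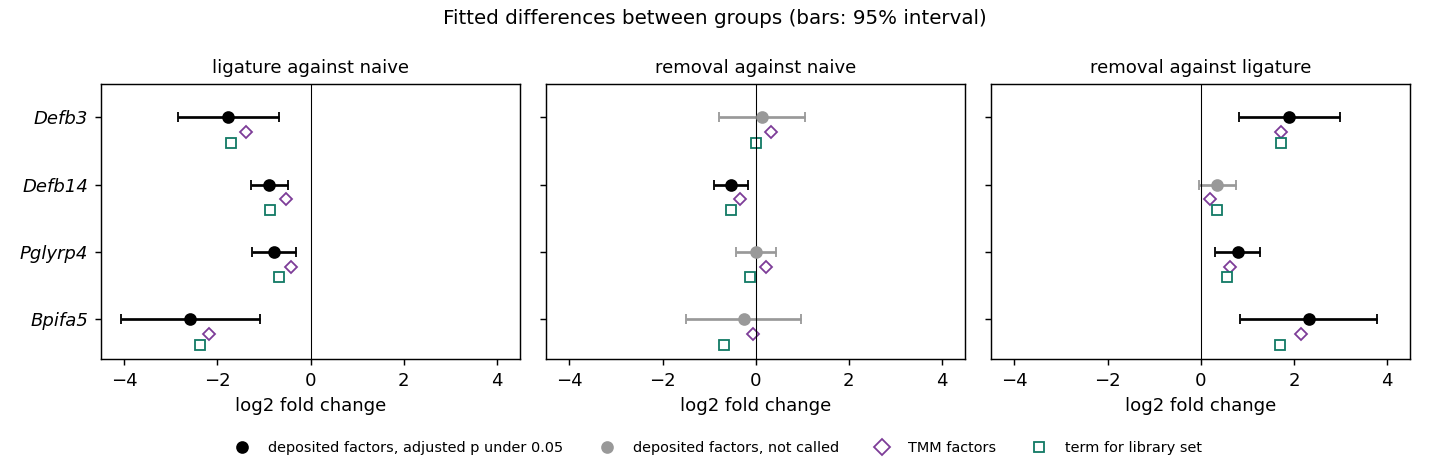
Log2 fold change (horizontal axis) of each gene in the 3 comparisons; filled points with bars are the fit with the deposited size factors and its 95% interval (black, adjusted p under 0.05; grey, not called), diamonds the fit with TMM factors and squares the fit with a term for library set. All points for ligature against naive lie left of 0 and all for removal against ligature lie right of 0.

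After removal of the ligature, Defb14 stayed below naive and the other 3 genes did not differ from naive by the test. In this comparison 24.4% of tested genes were called lower, and 1 of the 4 genes was. The medians over the 4 genes and over all tested genes were -0.12 and -0.17. Removal against naive shares the naive libraries with ligature against naive.

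Defb14 had 133, 181, 118 and 183 normalised counts in removal replicates 1 to 4. Replicates 2 and 4 lay between the naive and ligature libraries, replicate 1 lay just above the ligature libraries, and replicate 3 lay within them. All removal libraries were below all naive libraries, as in 27.8% of tested genes. The mean of 154 ± 33.4 (n = 4) was 69.3% of naive, a log2 difference of -0.53 ± 0.17 (edgeR adjusted p = 0.0298). The call was lost with TMM (-0.33, edgeR adjusted p = 0.108) and when naive replicate 1, 3 or 4 or removal replicate 1 or 3 was left out (-0.54 to -0.42, edgeR adjusted p = 0.0509 to 0.0856).

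Pglyrp4 had 371, 600.4, 595 and 559 normalised counts in the removal libraries. Replicate 1 stood apart, close to the highest ligature library and to the lowest naive library, and the others lay within the naive range. The mean of 531 ± 109 (n = 4) was 101% of naive, with a log2 fold change of 0.01 and a 95% interval of -0.42 to 0.44 (edgeR adjusted p = 0.979). The sign of this value turned with a term for library set (-0.12) and in 5 of 11 fits with a library left out.

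Bpifa5 had 137, 810.4, 1227 and 929 counts after removal. Replicate 1 lay among the ligature libraries and below every naive library, and the others lay within the naive range. The mean was 776 ± 461 (n = 4), 83.7% of naive. Its 95% interval for the log2 fold change, -1.49 to 0.97, leaves room for large differences in either direction around -0.26 (edgeR adjusted p = 0.711). A term for library set gave -0.69 (edgeR adjusted p = 0.267).

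Defb3 had 61.4, 224, 327 and 132 counts in the same libraries. Replicate 1 was again within the ligature range, while replicate 3 was above every naive library. The mean of 186 ± 115 (n = 4) was 110.2% of naive, and its coefficient of variation was 61.9% against the 7.43% that counting error alone would give. The log2 fold change of 0.14 had a 95% interval of -0.79 to 1.07 (edgeR adjusted p = 0.795).

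Compared with the ligature libraries, removal libraries had more transcript of Bpifa5, Defb3 and Pglyrp4, and Defb14 did not pass the test. In this comparison 17% of tested genes were called higher, and 3 of the 4 genes were. The median log2 fold change was 1.35 over the 4 genes and 0.20 over all tested genes, and this comparison shares its libraries with both others. Against naive, Bpifa5, Defb3 and Pglyrp4 were called with the ligature and not after removal. Their place in the selected table thus appears to rest on low ligature values, which favours a removal mean above the ligature mean. The mean of Bpifa5 was 4.99 times that of the ligature group (log2 fold change 2.32 ± 0.67), that of Defb3 was 3.74 times (1.90 ± 0.50) and that of Pglyrp4 was 1.73 times (0.79 ± 0.22), with edgeR adjusted p = 0.0279, 0.0276 and 0.0276. For Defb14 the log2 fold change was 0.36 ± 0.18, with a 95% interval of -0.04 to 0.75 (edgeR adjusted p = 0.165). Only for Pglyrp4 was every removal library above every ligature library, which 23.3% of tested genes showed.

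These rises rested on few libraries. Each of the 3 calls was lost without removal replicate 2, 3 or 4 and without any 1 of the ligature libraries (edgeR adjusted p = 0.0518 to 0.111), although the direction did not change. Without removal replicate 1 all were called, at log2 fold changes of 2.67 for Bpifa5, 2.19 for Defb3 and 0.93 for Pglyrp4. A term for library set ended the Bpifa5 call (log2 fold change 1.69, edgeR adjusted p = 0.0785).

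The library sets were read from the deposited batch-corrected values, which follow the normalised counts along 1 straight line per gene in each of 2 sets; the labels name no batch. Removal replicates 2 to 4 belonged to set A, with ligature replicate 1 and with naive replicates 1 and 2. Removal replicate 1 belonged to set B, together with ligature replicates 2 and 3 and the other two naive libraries. Within set A the removal mean of Bpifa5 was 5.63 times the single ligature library, that of Defb3 6.52 times and that of Pglyrp4 1.66 times. Within set B the single removal library had 0.945 times the ligature mean for Bpifa5, 1.07 times for Defb3 and 1.30 times for Pglyrp4. Set B holds 1 removal library, so that library and its set cannot be told apart. Against naive, the removal level was 139% in set A and 35.3% in set B for Defb3, 88.5% and 18.7% for Bpifa5, and 92.3% and 87.8% for Pglyrp4.

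The ligature libraries were below naive in both sets. Bpifa5 stood at 15.7% of naive in set A and at 19.7% in set B, Defb3 at 21.3% and 32.8%, Defb14 at 55.8% and 52.5%, and Pglyrp4 at 55.5% and 67.3%. Defb14 after removal was at 75.1% of naive in set A and at 57.8% in set B. The direction of these differences was the same in both sets.

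**Figure D3:**
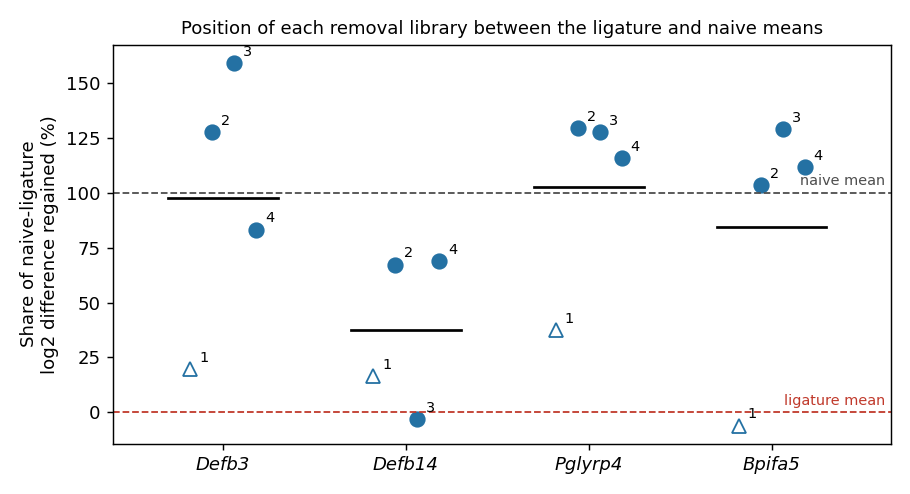
Share of the log2 difference between the naive and ligature means that each removal library had regained (vertical axis, percent; 0 is the ligature mean and 100 the naive mean), by gene; numbers are replicates, circles library set A, the triangle set B and black lines the mean. Removal replicate 1 lies at 37.3% or lower in every gene, and Defb14 has no library above 68.8%.

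Each removal library was placed between the ligature mean (0%) and the naive mean (100%) on the log2 scale, with 1 added to the normalised counts. Pglyrp4 had regained 103% ± 43.9 (SD, n = 4) of the difference, Defb3 97.5% ± 60.5 and Bpifa5 84.5% ± 61.3, against 37.4% ± 36.2 for Defb14. Whether Defb14 differs from the others in this share was not tested. The selection of the table against naive favours a large share for genes that entered it through low ligature values. Removal replicate 1 stood at 37.3% for Pglyrp4, 19.7% for Defb3, 16.7% for Defb14 and -6.02% for Bpifa5. The means used for this share pool both library sets. Within set B, Pglyrp4 of this library was at 371, against a ligature mean of 284 and a naive mean of 422. In the same order the values were 61.4, 57.2 and 174 for Defb3, 133, 121 and 230 for Defb14, and 137, 145 and 736 for Bpifa5. Removal replicate 3 had the highest share of the 4 libraries for Defb3 (159%) and Bpifa5 (129%) and the lowest for Defb14 (-3.04%). The 2 defensins therefore lay at opposite ends in the same library.

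The ratio of Pglyrp4 to Defb14 within a library does not depend on scaling. It was 1.67 to 3.06 in naive, 2.35 to 2.95 in ligature and 2.79 to 5.06 in removal libraries, with the highest value in removal replicate 3. Among naive libraries it was 2.88 and 3.06 in set A and 1.67 and 1.99 in set B. Removal replicates 2 to 4 are of set A, and the part of set in this ratio was not tested. The ratio of Defb3 to Defb14 ran from 0.435 to 1.12 in naive libraries, from 0.293 to 0.565 with the ligature and from 0.462 to 2.78 after removal. These ratios compare how the genes moved, not their amounts, and differences between groups in them were not tested.

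For each gene the most similar patterns were sought among 165 other tested genes, leaving out predicted models, by Pearson's r of log2(normalised count + 1) over the 11 libraries. These values describe likeness only, since the libraries share groups and sets, and the table was selected for differences between the groups. Defb14 was most like Egr1, an immediate early transcription factor (r = 0.953), Adm, which encodes the peptide adrenomedullin (0.947), and Zfp36, which promotes decay of AU-rich messenger RNAs (0.946). Egr1 had 16957 to 19550 normalised counts in naive, 8143 to 9473 in ligature and 10473 to 14508 in removal libraries, so that its groups, like those of Defb14 for naive, did not overlap. With each group's mean subtracted, r with Defb14 was 0.760 for Egr1, 0.722 for Adm and 0.752 for Zfp36.

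Pglyrp4 was most like Ugcg, which makes glucosylceramide (r = 0.978), Tmprss4, a transmembrane serine protease (0.975), and Ankk1, a kinase-like protein (0.964). With group means subtracted these values were 0.951, 0.964 and 0.929. Tmprss4 ranged from 795 to 1691 normalised counts in naive, from 621 to 930.4 in ligature and from 872 to 1436 in removal libraries. Bpifa5 was most like the C-type lectin Clec2e (0.927), Tmprss4 (0.903) and Pglyrp4 itself (0.903). Defb3 was most like Uox, the urate oxidase (0.919), the pseudokinase Trib1 (0.858) and the EGF receptor ligand Areg (0.817).

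**Figure D4:**
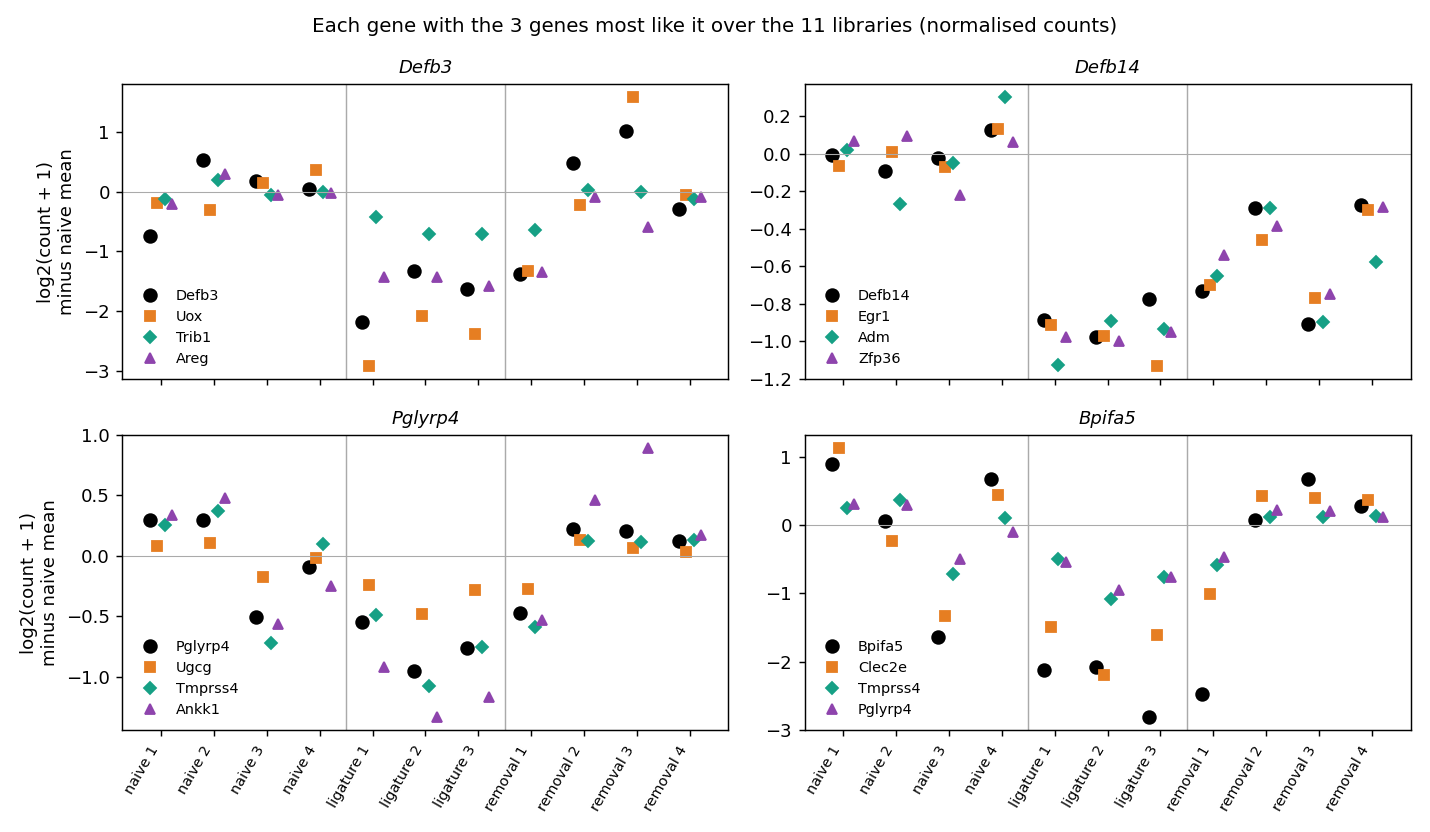
Log2(normalised count + 1) minus its naive mean (vertical axis) in each library (horizontal axis; vertical lines part the groups) for each gene and the 3 genes most like it. In the Defb14 panel no removal library reaches the naive mean, and in the Pglyrp4 and Bpifa5 panels naive replicate 3 and removal replicate 1 lie low for all genes shown.

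Between the 4 genes, likeness was highest for Pglyrp4 and Bpifa5 (r = 0.903, and 0.816 with group means subtracted). For Defb3 and Defb14 it was 0.495, and -0.107 with group means subtracted. The shared course of Pglyrp4 and Bpifa5 included a low naive replicate 3 and a low removal replicate 1, both of set B. Naive replicate 3 had the smallest and removal replicate 1 the next smallest total over the table (282274 and 294602 counts, against up to 503570), and the part of set or depth in these low values was not tested.

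Genes that sense bacteria or induce antimicrobial transcripts, and EGF receptor ligands, which act on keratinocytes, were taken from lists written with earlier results of these data known. Of 52 sensing and induction genes 4 were in the table, and all 4 were called lower with the ligature, as were 56.8% of all tested genes, so the count shows nothing particular to the list. Nfkbia, the NF-kappaB inhibitor that NF-kappaB itself induces, had a mean of 4133 ± 618 in naive (n = 4) and of 2043 ± 112 in ligature libraries (n = 3), a log2 difference of -1.02. Nfkbiz, a nuclear cofactor of NF-kappaB that takes part in interleukin-17 responses of keratinocytes, fell by 0.88 on the log2 scale, the transcription factor Cebpb by 0.66 and the Toll-like receptor adaptor Myd88 by 0.41, close to the median of -0.38 over all tested genes. After removal 1 of the 4, Nfkbia, was called below naive (-0.59, edgeR adjusted p = 0.0078), beside 24.4% of all tested genes. Called above the ligature level were 2 of the 4, Nfkbia (0.43) and Nfkbiz (0.57), beside 17% of all tested genes. Of the 8 genes on the list of EGF receptor ligands, which also holds the receptor gene Egfr, the table held Areg and Hbegf. Both were called lower with the ligature (-1.50 and -1.27), again beside 56.8% of all tested genes. After removal Hbegf was called below naive (-0.72, edgeR adjusted p = 0.0139) and Areg was not (-0.46, edgeR adjusted p = 0.151). Against the ligature libraries Areg was called higher (1.05, edgeR adjusted p = 0.0276) and Hbegf was not (0.56, edgeR adjusted p = 0.0701).

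Markers of cell types bear on these levels, because in bulk epithelium fewer cells of a type and less RNA per cell cannot be told apart. Of 79 marker genes for 11 cell types 3 were in the table, so the labelled tissue could not be checked against markers such as Krt5 and Krt14, and neutrophil, T cell, fibroblast and gland markers other than these 3 were not analysed here. Krt10, a keratin of suprabasal cells, had 81960 to 109641 normalised counts in naive, 116428 to 187178 in ligature and 88347 to 162606 in removal libraries. It rose with the ligature (log2 fold change 0.64), the direction opposite to that of the 4 genes. The macrophage marker Cd68, the only 1 of its list of 8 genes in the table, fell from 287 ± 54.6 (n = 4) to 180 ± 10.2 (n = 3). It was called lower with the ligature, as were 56.8% of all tested genes. After removal it stood at 222 ± 14.2 (n = 4), not called against either group. Smr2, a salivary gland gene, had 5, 3 and 2 reads in the ligature libraries, 7 in removal replicate 1 and 0 in all naive and the other removal libraries. The libraries with Smr2 reads are those in which Bpifa5 and Defb3 were lowest, which did not hold for Defb14 and Pglyrp4. Smr2, like every gene of the table, was selected for a difference from naive, and reads this few do not settle presence against absence. The Poisson 95% interval was 0.23 to 6.72 normalised counts for the 2 reads of ligature replicate 3. For the 0 reads of naive replicate 3 it was 0 to 4.87. The part of gland or other cells in the results was not tested.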

How the data were processed

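Stranded polyA libraries of gingival epithelium were sequenced, per the labels' protocols. Tools listed in the submitters' processing notes, with no role stated, are DESeq2 1.36.0, HTSeq 2.01, TopHat2 2.1.1 and cutadapt 2.10, and the listed build is GRCm39. For the strand setting and the batch correction, a description is not given in the sources used here. The authors deposited raw counts, normalised counts (a signal equal to the count divided by 1 size factor per library, 0.757 to 1.21, within 0.0032) and other, batch-corrected values on the same scale, which can be negative. The table names 178 genes, with 282274 to 503570 counts per library over them, which is not the library depth; that depth is unknown.

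Counts of all 11 libraries were fitted with edgeR 4.0.16 (R 4.3.3; quasi-likelihood test, 1 mean per group, deposited size factors, default filter, 176 genes tested), after a test on simulated data. DESeq2 1.42.0, TMM and median-of-ratios factors, other filters, a term for library set, a replicate block and leaving out each library were alternatives. Library sets were the best of 957 divisions in 2 by linearity of the corrected values (median residual 4.2e-05%, next 1.71%). Replicates of a group differed by more than counting noise (chi-square per degree of freedom 20.4 or more), and none was merged. Named genes are the 4 genes, the 3 most like each of them and list genes in the table. The genes and lists were chosen with earlier results of these data known. Gene models and sequences came from GENCODE M21 and RefSeq on GRCm38, another build than the authors'; alignment used Biopython 1.88.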

Additional observations from a re-analysis of the deposited data

How the results depend on the processing

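For ligature against naive, 150 genes were called, 50 higher and 100 lower (TMM, 64 and 50), and leaving out 1 library gave 130 to 154. The calls of Defb3, Defb14 and Bpifa5 were made under every alternative run, and that of Pglyrp4 was lost with TMM (-0.41) and with median-of-ratios factors (-0.42). For removal against naive, 66 genes were called (23 higher and 43 lower; TMM, 50 and 22), 126 with a term for library set and 38 to 78 without 1 library. The Defb14 call was lost with TMM (-0.33) and median-of-ratios factors (-0.38), and values without 1 library ran from -0.62 to -0.42. Among genes not called, Pglyrp4 turned to -0.12 and Bpifa5 moved from -0.26 to -0.69 with a term for library set, and without 1 library Pglyrp4 ran from -0.13 to 0.15, Bpifa5 from -0.57 to 0.0899 and Defb3 from -0.28 to 0.43. For removal against ligature, 35 genes were called (30 higher and 5 lower; TMM, 17 and 12; median-of-ratios, 16 and 30), and 0 to 49 without 1 library; where edgeR called 0, an unadjusted p under 0.05 was found for 49 to 72 genes. Without 1 library Defb3 ran from 1.49 to 2.19, Pglyrp4 from 0.70 to 0.93 and Bpifa5 from 2.01 to 2.67, and Bpifa5 stood at 1.69 with a term for library set. The cause of these changes was not tested. The replicate numbers were not taken as pairs: deviations from group means correlated above 0.1 in 2 of 10 same-numbered pairs (-0.48 to 0.54). Differences between library sets were left in these deviations, so the check cannot exclude pairing. With a replicate block, 8 genes were called for removal against ligature, and the calls of Pglyrp4 (0.80) and Bpifa5 (2.24) were lost. The share regained was recomputed only with batch-corrected values, with 10 added to the counts in place of 1, and without 1 library. It moved by less than its SD in each, but that SD was wide (36.2 for Defb14 to 61.3 for Bpifa5). TMM and median-of-ratios factors and a term for library set were not run for this share. With batch-corrected values the Bpifa5 share rests in part on ligature replicate 1, at a corrected value of 3.21. Read counts of 41 to 65 for Defb3 in ligature libraries limit its precision, and the library depth is unknown.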
